A study of Mus musculus with 10 samples.

Results

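The genes described here encode the proteasome, taken as every gene of the deposited mouse liver table whose symbol is Psma, Psmb, Psmc or Psmd followed by a number alone. This naming rule, which used no measured value, took 39 of 47702 genes. They were 8 alpha genes and 7 constitutive beta genes of the core particle, 4 inducible or thymic beta genes, 6 ATPase and 11 non-ATPase genes of the regulatory particle, and 3 genes that carry a Psmd name but encode assembly chaperones. Pseudogenes and Psmc3ip, whose names go on after the number, made up 5 further rows that were left out. A mean of at least 0.5 FPKM (sequenced fragments divided by transcript length and by library size) over all libraries was required for testing, and 37 of the 39 genes reached it. The other two were Psma8, an alpha subunit known from testis, with a mean of 0.332 FPKM, and Psmb11, the beta subunit of the thymic proteasome, which was listed at 0 in every library.

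The proteasome is the protease complex that degrades proteins marked with ubiquitin in the cytoplasm and nucleus. Its core particle is a barrel of stacked rings, in which alpha subunits form the gate and beta subunits the inner rings, and the regulatory particle binds the ubiquitin chain, removes it and unfolds the substrate into the core. Psmb5, Psmb6 and Psmb7 carry the active sites, and interferon induces Psmb8, Psmb9 and Psmb10, which take their places in the immunoproteasome. In hepatocytes the complex also disposes of secretory proteins that are returned from the endoplasmic reticulum, and the transcription factor NFE2L1 raises constitutive subunit genes together when proteasome activity is short.

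Liver RNA came from 5 samples of female mice with Etnppl disrupted in the whole body (KO) and from 5 samples of wild-type (WT) females. Mice of both genotypes ate a chow diet for 20 weeks, and the poly-A RNA of snap-frozen liver was sequenced in paired ends. Etnppl encodes ethanolamine-phosphate phospho-lyase, which breaks down phosphoethanolamine, and the comparison asked how its loss altered hepatic gene expression. The sources used here do not give the strain, the age of the animals or the exons removed. The labels number the samples of each genotype without saying that each is a separate animal, so p-values reflect only the spread among these samples, which may be technical.

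The transcript of the targeted gene was at 60.27, 69.73, 108.39, 47.24 and 43.32 FPKM in WT 1 to WT 5 and at 26.43, 21.97, 18.88, 25.74 and 17.72 FPKM in KO 1 to KO 5. Every KO library was below every WT library, but Etnppl transcript was not absent from KO (exact permutation test, two-sided, p = 0.0079, the smallest that 252 arrangements allow). No proteasome gene lies within 10 Mb of Etnppl. The nearest of the 3 on its chromosome 3 starts 22.4 Mb away. The relative depth of the libraries, read from ratios of low FPKM values, ranged from 0.909 to 1.10 with a mean of 1.03 for WT and of 0.969 for KO (two-sided exact permutation p = 0.119, 5 libraries each). The tissue label was checked against 10 hepatocyte markers, which summed to between 64063 and 74019 FPKM in each library.

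Hepatic proteasome transcripts were abundant and were close to equal in the 2 genotypes. Of the 37 tested genes, 1 rose in KO (Psmd8, a lid subunit of the regulatory particle), 0 fell and 36 did not pass the test, which was limma on log2(FPKM + 0.5) with a Benjamini-Hochberg adjusted p under 0.05 over all 12247 genes tested. Of all genes tested, 8.54% were called, 3.98% higher and 4.56% lower. At an unadjusted p under 0.05 there were 3 proteasome genes (Psmd8, Psma6 and Psmb8), against 24.5% of all genes. The median log2 difference, KO minus WT, was 0.0075 over the 37 genes and -0.020 over all genes, and the median absolute log2 difference was 0.055 against 0.124. All genes are not a matched background for this, since their median level was 6.76 FPKM against 75.5 FPKM for the 37. The median coefficient of variation was 7.15% in WT and 5.14% in KO for the 37, and 12.1% and 11.3% for all genes. Smaller differences can therefore reflect less variable transcripts. Of the 37 genes, 21 lay above 0 and 16 below, and of all genes tested 5594 lay above and 6653 below.

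The limits that the data set on transcripts of the constitutive subunits were narrow, gene by gene. They are relative to the other transcripts of a library, and no interval was made for the complex as a whole. The 31 tested constitutive subunits, 14 of the core and 17 of the regulatory particle, had 95% intervals that all lay between -0.21 and 0.35 on the log2(FPKM + 0.5) scale, that is between 0.866-fold and 1.28-fold of WT. The core alone stayed between -0.21 and 0.25. The summed level of all 39 genes was 2625 ± 145 FPKM in WT and 2655 ± 103 FPKM in KO (SD, n = 5 each).

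**Figure D1:**
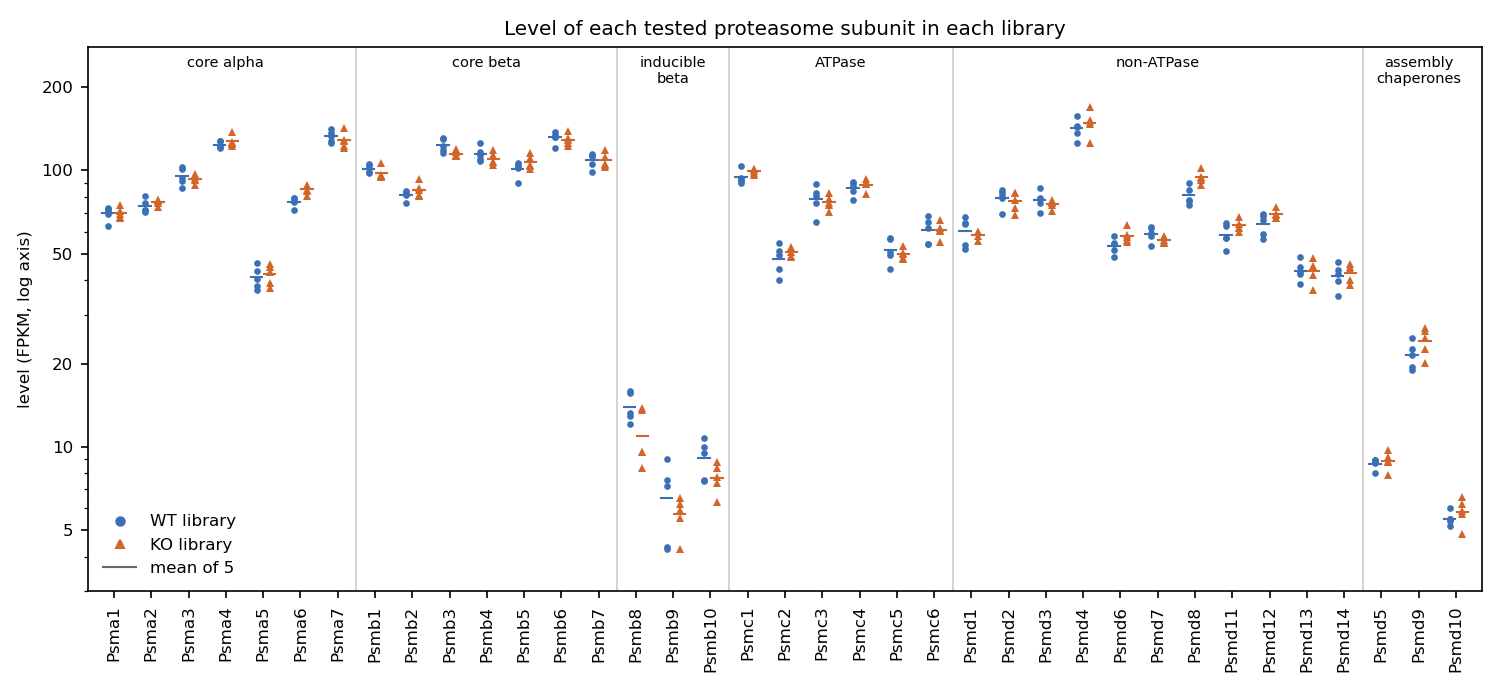
Level of each tested proteasome gene in FPKM on a log axis, with a blue circle for each WT library, an orange triangle for each KO library and a bar at the mean of 5. Constitutive subunits lie between about 41.5 FPKM (Psma5) and 145.5 FPKM (Psmd4), whereas the 3 inducible beta subunits and the chaperones Psmd5 and Psmd10 lie between 5.65 and 12.4 FPKM.

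Levels, which in FPKM are already divided by transcript length, differed widely among the genes of the complex. Psmd4, a ubiquitin receptor, had the highest mean over all 10 libraries at 145.5 FPKM, followed by Psma7 at 130.8, Psmb6 at 130.5, Psma4 at 125.8 and Psmb3 at 119.4 FPKM. Psma7 and Psmb6 differed by less than their spread between libraries. Psma5 was the lowest constitutive subunit at 41.5 FPKM, so the constitutive genes spanned a 3.50-fold range although the particle is thought to hold its subunits in equal numbers. Their median was 78.5 FPKM, against 6.76 FPKM over all tested genes. The inducible subunits were far lower, at 12.4 FPKM for Psmb8, 8.39 FPKM for Psmb10 and 6.09 FPKM for Psmb9.

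Promoters were read for 32 of the 39 genes, which had 34 listed starts in RefSeq (GRCm38.p6), and were searched on both strands for a pair of motifs in a window from 250 bases before to 50 bases after the start. TGACNNNGC is the core of the antioxidant response element, bound by NFE2L1 and NFE2L2 with small Maf partners. It was found in 5 of the 34 proteasome promoters (14.7%) and in 12.4% of 32851 promoters of all genes. The core of the interferon-stimulated response element, a pair of TTTC blocks separated by any 2 bases, was in 3 of the 34 (8.82%) and in 3.44% of all promoters. Psmb5, Psmb6, Psmd9, Psmd12 and Psmc6 held the former and Psmd4, Psmd9 and Psmb3 the latter, and no match of the one overlapped a match of the other. These are matches of letters and not measured sites. The stretches below, free of annotated exons, are those of Psmd8 as the gene that rose, of Psmb3 as one of the genes with the smallest p, and of Psmb5, Psmb6 and Psmd9 for the antioxidant element within 60 bases of the start, chosen after the search. Capitals mark a motif match, and Psmd8 has none.
Psmd8 (chr7:29180702-29180853, minus strand): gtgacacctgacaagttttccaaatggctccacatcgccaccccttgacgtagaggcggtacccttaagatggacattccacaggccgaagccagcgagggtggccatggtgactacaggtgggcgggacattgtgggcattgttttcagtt
Psmb3 (chr11:97703254-97703398, plus strand): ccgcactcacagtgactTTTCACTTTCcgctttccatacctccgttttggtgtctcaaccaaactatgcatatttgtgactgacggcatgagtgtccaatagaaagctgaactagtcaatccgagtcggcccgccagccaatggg
Psmb5 (chr14:54618023-54618055, minus strand): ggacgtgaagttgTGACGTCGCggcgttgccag
Psmb6 (chr11:70525297-70525356, plus strand): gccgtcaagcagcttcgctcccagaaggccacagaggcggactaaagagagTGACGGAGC
Psmd9 (chr5:123228130-123228189, plus strand): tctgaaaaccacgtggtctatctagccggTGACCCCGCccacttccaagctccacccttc

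The alpha subunits, whose ring gates entry to the core, gave 0 calls among 7 tested genes, with 5 log2 differences above 0 and 2 below (range -0.05 to 0.15). Psma6 stood highest among them. It was at 77.36, 76.98, 71.94, 79.43 and 79.57 FPKM in WT 1 to WT 5 and at 81.10, 85.21, 88.11, 84.12 and 88.96 FPKM in KO 1 to KO 5. Every KO library therefore lay above every WT library, which held in this direction for 1 of the 37 proteasome genes and for 4.08% of all genes. No proteasome gene was separated the other way, against 4.78% of all genes (8.87% in either direction). The means were 77.1 ± 3.09 and 85.5 ± 3.17 FPKM (SD, n = 5 each), with a log2 difference of 0.15 (SE 0.05) with a limma adjusted p of 0.0709. Psma6 passed only after quantile normalization (adjusted p = 0.0339).

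Psma2, the alpha subunit with the next smallest p, did not pass. Its WT levels were 71.87, 72.14, 70.77, 76.02 and 81.15 FPKM, and its KO levels were 73.86, 78.07, 77.41, 75.97 and 78.21 FPKM. The 2 groups overlapped over most of their range (log2 difference 0.05, adjusted p = 0.616). Psma7, the most abundant alpha subunit, was at 133.81, 141.08, 125.92, 127.69 and 136.46 FPKM in WT and at 128.11, 122.97, 142.35, 128.62 and 120.92 FPKM in KO (log2 difference -0.05, adjusted p = 0.631). Here the highest of all 10 libraries was a KO library and so was the lowest. Psma5, the least abundant, was at 40.39, 37.02, 38.19, 46.38 and 43.23 FPKM in WT and at 44.81, 42.96, 45.83, 39.04 and 37.63 FPKM in KO (log2 difference 0.04, adjusted p = 0.823).

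The constitutive beta subunits form the inner rings. Of these 7 genes 0 were called, with 3 log2 differences above 0 and 4 below (range -0.10 to 0.09). Psmb3, a structural subunit without an active site, had the smallest p. It was at 118.84, 122.56, 115.48, 130.54 and 131.09 FPKM in WT and at 113.00, 113.64, 119.87, 112.80 and 116.67 FPKM in KO. All KO libraries but KO 3 were below 4 of the 5 WT libraries, and the groups overlapped through WT 3 and KO 3. The means were 124 ± 6.96 and 115 ± 3.04 FPKM (SD, n = 5 each), with a log2 difference of -0.10 (adjusted p = 0.229). Psmb2, likewise structural and the least abundant of the ring, was at 83.86, 81.45, 76.28, 82.37 and 84.32 FPKM in WT and at 81.47, 80.65, 92.78, 86.46 and 84.91 FPKM in KO (log2 difference 0.06, adjusted p = 0.512).

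Psmb5, Psmb6 and Psmb7 cut after hydrophobic, acidic and basic residues in that order. Psmb5 was at 103.00, 101.75, 90.15, 106.51 and 104.69 FPKM in WT and at 104.05, 105.01, 115.99, 101.53 and 111.13 FPKM in KO. WT 3 was the lowest and KO 3 the highest of these 10 values, and the others overlapped (log2 difference 0.09, adjusted p = 0.386). Psmb6 was at 132.08, 132.32, 120.78, 138.41 and 134.96 FPKM in WT and at 122.31, 126.06, 138.91, 130.76 and 128.83 FPKM in KO (log2 difference -0.03, adjusted p = 0.808). Psmb7 was at 112.38, 105.28, 98.72, 112.95 and 114.74 FPKM in WT and at 104.83, 112.09, 118.62, 102.67 and 105.99 FPKM in KO (log2 difference 0.00058, adjusted p = 0.997). WT 3 was again lowest and KO 3 highest for Psmb6 and Psmb7. An exon of Psmb7 shares 405 bases with Nek6 on the opposite strand, and since the strand setting of the counting is not stated in any source used here, reads of overlapping genes may be mixed.

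The inducible beta subunits had the widest spread of the complex and gave 0 calls. All 3 log2 differences lay below 0. Psmb8, which replaces Psmb5, was at 15.86, 15.67, 12.92, 12.03 and 13.19 FPKM in WT and at 13.57, 9.54, 13.78, 8.35 and 9.54 FPKM in KO. KO 2, KO 4 and KO 5 were below every WT library, while KO 1 and KO 3 lay within the WT range. The means were 13.9 ± 1.73 and 11.0 ± 2.53 FPKM (SD, n = 5 each), with a log2 difference of -0.35 (SE 0.14) with an unadjusted p of 0.0277 and a limma adjusted p of 0.146.

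Psmb9, which replaces Psmb6, was at 7.60, 9.03, 7.23, 4.32 and 4.27 FPKM in WT and at 6.53, 5.92, 6.19, 5.53 and 4.27 FPKM in KO. The spread within WT exceeded the difference between the genotypes, since WT 4 and WT 5 were about as low as the lowest KO library (log2 difference -0.13, 95% interval -0.56 to 0.30, adjusted p = 0.735). Psmb10, which replaces Psmb7, was at 9.99, 10.72, 9.52, 7.55 and 7.52 FPKM in WT and at 8.82, 7.37, 8.34, 7.77 and 6.30 FPKM in KO. WT 1, WT 2 and WT 3 were above all KO libraries, and WT 4 and WT 5 among them (log2 difference -0.21, adjusted p = 0.286). Psmb9 shares 212 exon bases with Tap1 on the opposite strand, so the split of their reads is uncertain.

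The share of each inducible subunit relative to its constitutive counterpart was compared over the 3 pairs. A plain ratio of FPKM within a library does not depend on scaling between libraries. The percentages are such ratios, but the tested log2 ratio had 0.5 FPKM added to both values and is not wholly free of scaling. Psmb8 amounted to 15.4, 15.4, 14.3, 11.3 and 12.6% of Psmb5 in WT 1 to WT 5 and to 13.0, 9.08, 11.9, 8.22 and 8.58% in KO 1 to KO 5. The lowest WT libraries and the highest KO libraries overlapped. The mean share was 13.8 ± 1.81% in WT and 10.2 ± 2.16% in KO (SD, n = 5 each), a difference in log2 ratio of -0.44, with p = 0.0397 in an exact permutation test, two-sided, and 0.119 after adjustment over the 3 pairs. It did not pass the adjusted threshold. Psmb9 was 4.97 ± 1.72% of Psmb6 in WT and 4.41 ± 0.738% in KO (exact permutation p = 0.667). This difference changed sign without WT 2, to 0.017 from -0.11 in log2 ratio. Psmb10 was 8.39 ± 1.68% of Psmb7 in WT and 7.11 ± 0.944% in KO (exact permutation p = 0.198, adjusted 0.298).

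**Figure D2:**
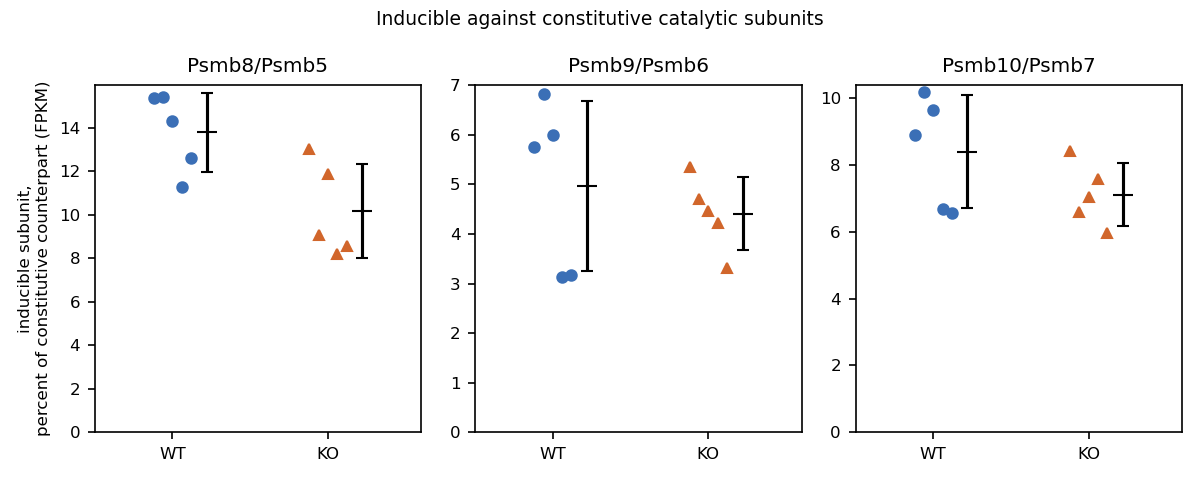
FPKM of each inducible catalytic subunit as a percent of its constitutive counterpart, for 5 WT (circles) and 5 KO (triangles) libraries, with black bars for mean and SD and axes that start at 0. Psmb8/Psmb5 is 13.8% in WT and 10.2% in KO with overlapping libraries, and Psmb9/Psmb6 splits within WT.

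Immune cells also carry immunoproteasome subunits, so their markers were read in the same libraries. Of 12 Kupffer cell markers (resident liver macrophages) 5 fell in KO and 0 rose. Those that fell were Clec4f (log2 difference -0.51), Vsig4 (-0.43), Csf1r (-0.37), C1qa (-0.46) and Folr2 (-0.58). In all, 11 of the 12 markers lay below 0, against 6653 of the 12247 genes tested. The markers share libraries, so their signs are not independent. The marker above 0 was Marco, named after its value was seen (log2 difference 0.75, limma adjusted p = 0.191). It was at 26.06 FPKM in KO 4 and at 7.95 to 10.86 FPKM in the other KO libraries. The call of Csf1r was lost without WT 1, WT 2, WT 3, KO 1, KO 2 or KO 5 (adjusted p at most 0.0687) and that of Folr2 without WT 1, WT 2, WT 3, WT 4, KO 2, KO 4 or KO 5 (at most 0.0821). Without the filter on low values both were lost as well (0.0566 and 0.0725), as was Folr2 without WT 3 and KO 3 together (0.0537). The 12 markers summed to 297.6 to 340.1 FPKM in WT and to 207.5 to 299.0 FPKM in KO, and none was at 0. Of 11 tested markers of other leukocytes 0 were called and 8 lay below 0. The full set of 14 summed to between 82.7 and 132.7 FPKM in WT and between 66.3 and 104 FPKM in KO, with Cd3d and Cd8a at 0 in some libraries. Lyz2 and Igkc made up most of this sum, at 71.15 and 43.67 FPKM in WT 1. Cd3e was at 0.71 and Cd79a at 1.87 FPKM there. The order of libraries by this sum is thus largely that of Lyz2 and Igkc, and not of leukocytes as a group. WT 1 and WT 2, the highest libraries for Psmb8, Psmb9 and Psmb10, were also the highest of the 10 for both sums. WT 4 and WT 5 did not follow this order, with Psmb9 at 4.32 and 4.27 FPKM, below KO 1 to KO 4. Their Kupffer sums, 316.7 and 297.6 FPKM, were above those of KO 1, KO 2 and KO 4 (266.7, 247.7 and 277.6 FPKM). The 2 sums come from the same libraries and are not independent. The part of these cells in the inducible subunits was not tested, and in bulk RNA fewer cells of a type and less RNA per cell cannot be told apart.

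The ATPases of the regulatory particle form the ring that unfolds substrates and opens the gate. Of these 6 genes 0 were called, with 4 log2 differences above 0 and 2 below (range -0.04 to 0.09). Psmc1, the most abundant, was at 93.53, 94.21, 91.82, 90.02 and 103.96 FPKM in WT and at 96.50, 100.90, 101.25, 99.24 and 98.23 FPKM in KO. All KO libraries were above 4 of the 5 WT libraries but below WT 5 (log2 difference 0.07, adjusted p = 0.416). Psmc2, the least abundant, was at 49.25, 44.13, 40.07, 51.29 and 54.47 FPKM in WT and at 48.83, 50.72, 52.94, 48.44 and 52.14 FPKM in KO. WT libraries enclosed the whole KO range (log2 difference 0.09, adjusted p = 0.531). The median coefficient of variation of the ATPase genes was 10.5% in WT and 4.51% in KO, against 12.1% and 11.3% over all tested genes. These 6 genes moved together, and WT 3 and WT 5 lay furthest from their means, with median deviations of -0.18 and 0.13. The values are thus not 6 separate measures of spread.

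Psmd8 was the only proteasome gene that passed the test. It is a lid subunit, the part of the regulatory particle that holds the deubiquitinase, and is known as the last to join the lid. Psmd8 (chromosome 7, 29174188 to 29180701, minus strand, mm10) was at 74.99, 78.35, 77.49, 84.79 and 90.46 FPKM in WT 1 to WT 5 and at 88.89, 92.67, 94.39, 94.07 and 102.20 FPKM in KO 1 to KO 5. The groups overlapped narrowly, with KO 1 below WT 5. The means were 81.2 ± 6.31 and 94.4 ± 4.86 FPKM (SD, n = 5 each), with a log2 difference of 0.22 (SE 0.06, 95% interval 0.09 to 0.35, limma adjusted p = 0.0466). The call was lost when any library except WT 5 was left out, with adjusted p between 0.0528 and 0.109. It was also lost without the filter on low values (adjusted p = 0.0806), after scaling by library sum (0.143), with the replicate number as a block (0.0538) and without WT 3 and KO 3 (0.116), while the difference stayed between 0.19 and 0.26 under every setting run.

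The other non-ATPase subunits did not pass. Of all 11 genes 6 log2 differences lay above 0 and 5 below (range -0.06 to 0.22). Psmd6, another lid subunit, was at 54.56, 51.38, 48.78, 54.02 and 58.07 FPKM in WT and at 57.44, 58.48, 63.29, 55.02 and 55.89 FPKM in KO. Each KO library was above at least 4 of the 5 WT libraries (log2 difference 0.12, adjusted p = 0.231). Psmd4, the ubiquitin receptor, was at 145.05, 136.98, 125.70, 144.29 and 157.99 FPKM in WT and at 149.57, 152.85, 169.55, 125.65 and 147.59 FPKM in KO. KO 3 was the highest and KO 4 the lowest of its 10 libraries (log2 difference 0.07, adjusted p = 0.661). Psmd14, the deubiquitinase that strips ubiquitin from the substrate, was at 43.49, 39.76, 35.10, 46.74 and 42.25 FPKM in WT and at 44.81, 40.14, 45.69, 38.61 and 44.10 FPKM in KO (log2 difference 0.04, adjusted p = 0.780). Of the remaining non-ATPases, Psmd13 shares 342 exon bases with Sirt3 on the opposite strand, and so its level is less certain.

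**Figure D3:**
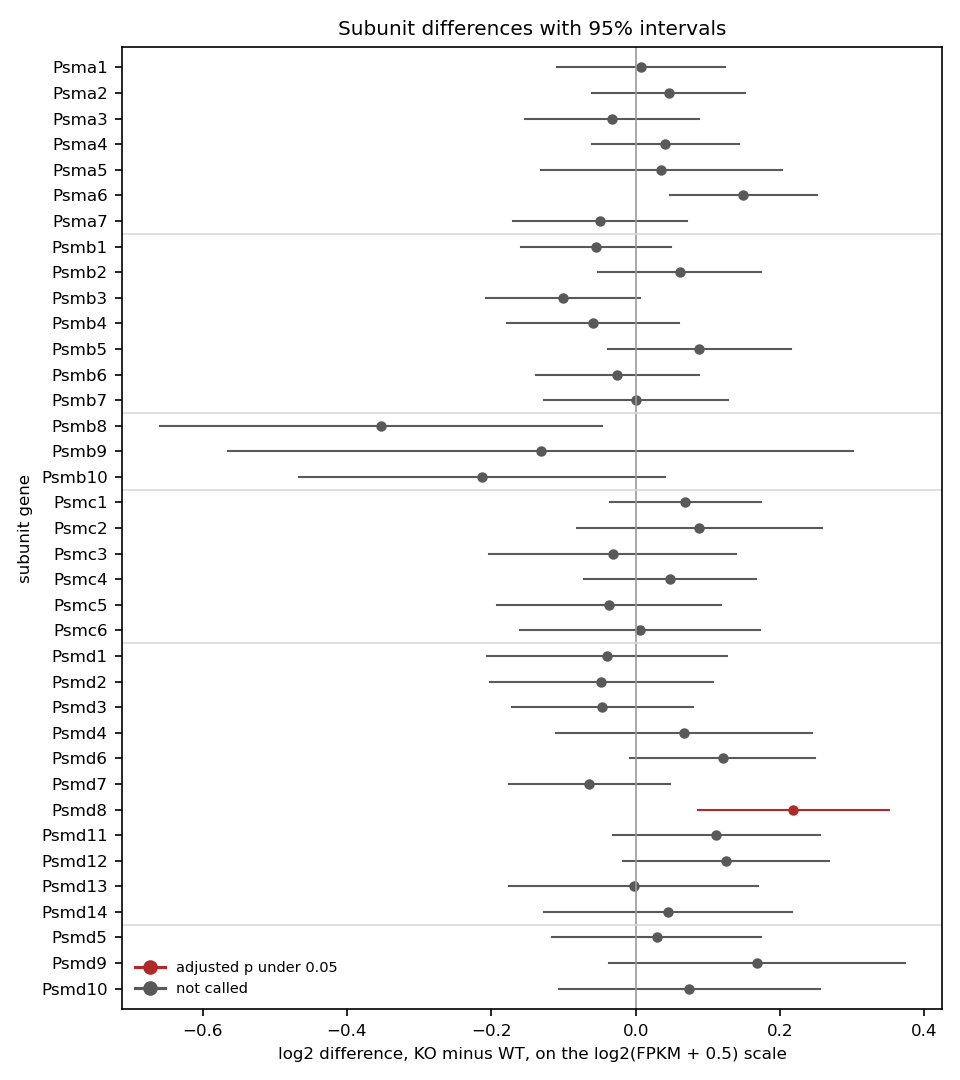
Difference between the genotypes for each tested proteasome gene, as KO minus WT on the log2(FPKM + 0.5) scale, with points for the estimate, lines for its 95% interval and red for an adjusted p under 0.05. Psmd8 at 0.22 is the red gene, and the 3 inducible subunits have the widest intervals.

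Psmd5, Psmd9 and Psmd10 encode chaperones that bind ATPases during assembly and leave the finished complex. None of these 3 genes was called, and all 3 log2 differences lay above 0 (range 0.03 to 0.17). Psmd9 was at 18.87, 19.43, 21.54, 22.49 and 24.77 FPKM in WT and at 22.61, 20.16, 24.83, 26.91 and 26.20 FPKM in KO. KO 3, KO 4 and KO 5 were above all WT libraries, KO 1 and KO 2 within their range (log2 difference 0.17, adjusted p = 0.297). Psmd10, also known as gankyrin, was at 5.38, 5.99, 5.45, 5.15 and 5.46 FPKM in WT and at 6.20, 4.82, 5.83, 6.55 and 5.71 FPKM in KO (log2 difference 0.07, adjusted p = 0.632). Its coefficient of variation was 5.62% in WT and 11.2% in KO.

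Proteasome genes moved together from library to library, by more than they differed between genotypes. WT 3 held the lowest WT value of 24 of the 37 tested genes (64.9%, against 22.6% of all tested genes) and lay below their means over the 10 libraries in 33 of 37. KO 3 held the highest KO value of 27 of 37 (73.0%, against 21.2%) and lay above the mean in 35. The median deviation of the 37 genes from their own means was -0.13 in WT 3 and 0.10 in KO 3 on the log2 scale, whereas the median over all genes stayed between -0.02 and 0.03 in every library. Averaged by genotype, the median deviation differed by 0.03, while it ranged over 0.20 within WT and 0.14 within KO. WT 3 also had the highest Etnppl level, at 108.39 FPKM, and the highest relative depth, at 1.10. KO 2, however, had a depth of 1.09 with a median deviation of 0.0093. KO 3 had a depth of 1.01 and Etnppl at 18.88 FPKM, within the range of the other KO libraries. The part of depth in this pattern was not tested. In results chosen after this was seen, leaving out WT 3 and KO 3 gave 0 called genes and a median log2 difference of -0.05 over the 37.

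**Figure D4:**
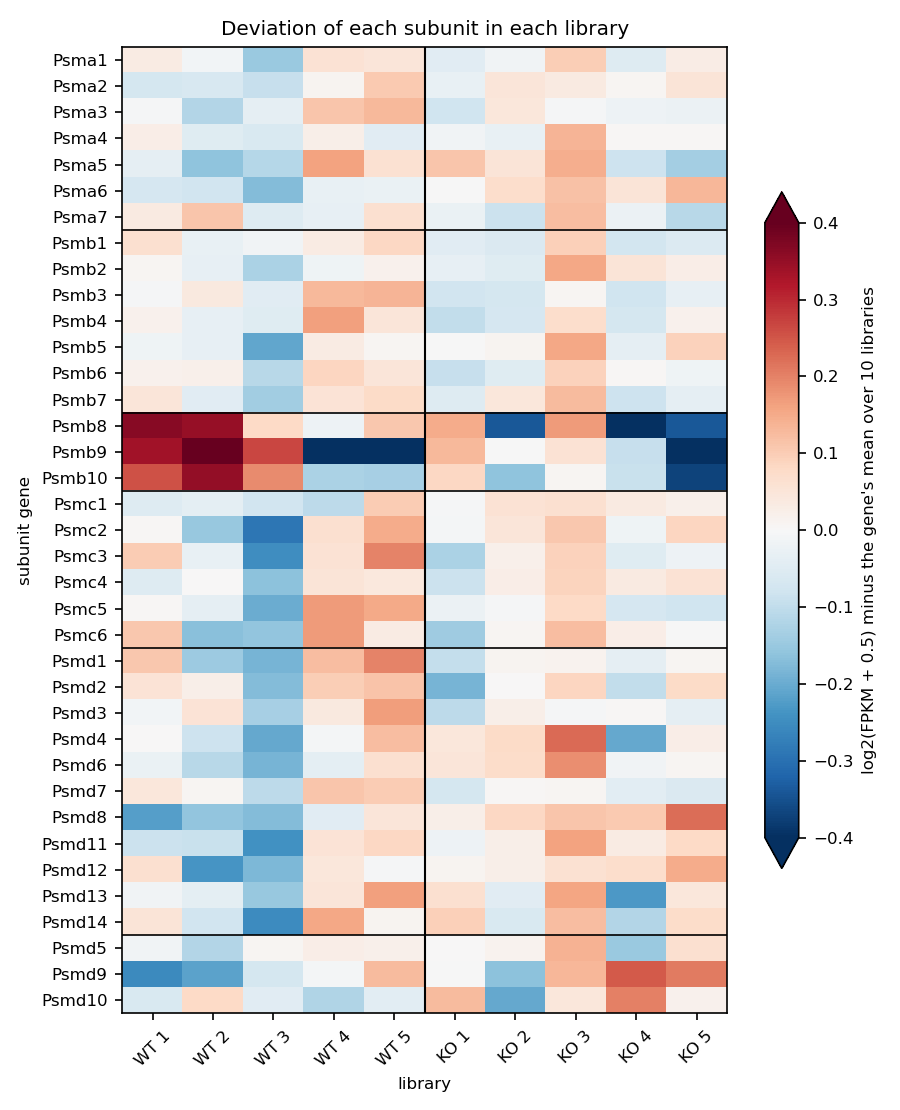
Deviation of each tested proteasome gene (rows) in each library (columns) from its own mean over 10 libraries, in log2(FPKM + 0.5), with red above and blue below the mean and colours ending at 0.4 either way. WT 3 is blue for most constitutive subunits and KO 3 red, while Psmb8, Psmb9 and Psmb10 follow another order of libraries.

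After the genotype means were removed, the 31 constitutive subunits had a median pairwise Pearson r of 0.656 over 10 libraries, with 460 of 465 pairs (98.9%) above 0. Over all tested genes the median r was 0.013 with 51.2% of pairs above 0. These genes share libraries, depth and scaling, so the r is a description. Without WT 3 and KO 3 it was 0.453, with 394 pairs (84.7%) above 0. Beta subunits of the core covaried most tightly, with a median r of 0.770 and all 21 pairs above 0, followed by the ATPases at 0.741 and the non-ATPases at 0.664. The alpha subunits covaried least of these groups, with a median r of 0.473, 20 of 21 pairs above 0 and a lowest r of -0.196. The inducible subunits did not share this. Since the 31 constitutive subunits covary, the counts out of 31 below are not independent. How often other genes reach such values was not examined. The median r with the constitutive subunits was -0.455 for Psmb9 (1 of 31 above 0), -0.408 for Psmb10 (2 of 31) and 0.0016 for Psmb8 (17 of 31). Without WT 3 and KO 3 these were -0.665 (1 of 31), -0.677 (1 of 31) and -0.491 (6 of 31), so the value near 0 for Psmb8 rested on those libraries. Psmb9 and Psmb10 followed each other at r = 0.959 over all 10.

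The genes outside the complex whose pattern was most like the mean of the 37 members were sought by the same residual correlation over 12210 genes. They were 1300002E11Rik (r = 0.968, Spearman rho 0.952), Vcp (0.961, 0.988), Csf2rb (0.956, 0.976), Numa1 (0.951, 0.830) and Dffa (0.948, 0.867). These are the highest values of a search over many genes in few libraries. How high such values run without any link was not tested, and no link of these genes to the proteasome was examined. Without WT 3 and KO 3 their r ranged from 0.790 to 0.911. Vcp encodes the ATPase that extracts ubiquitin-marked proteins from membranes and complexes, and its mean level was 156.6 FPKM with a log2 difference between genotypes of -0.01 (adjusted p = 0.913).

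Because the subunits moved together, each was also set against the mean of the other constitutive subunits in the same library, as a description with no test. Of the 37 tested genes, 4 had every KO library above every WT library on this relative scale and 2 had every KO library below. Over all tested genes set against the same mean the shares were 2.14% and 5.27%, which is not a like-for-like background, since the subunits covary with that mean. Psmd8 lay above its WT values in every KO library (difference 0.20), as did Psma6 (0.13), Psmd6 (0.10) and Psmd11 (0.09). Psmb3 (-0.13) and Psmd7 (-0.09), the partner of Psmd14 in the lid, lay below theirs in every KO library. The lid subunits Psmd6, Psmd7, Psmd8 and Psmd11 thus differed in direction on this scale. Differences from the mean of the other constitutive subunits balance out by construction, so some must lie on each side. These subunits were also listed because they separated on this scale. Before it was applied, Psmd7 had a log2 difference of -0.06 (limma adjusted p = 0.481).

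Around the proteasome, a list of 12 other components, activators and regulators had 1 gene that fell, 0 that rose and 11 that did not pass (median log2 difference 0.02). Psme2, a subunit of the interferon-induced activator cap, was at 37.72, 40.13, 42.72, 31.54 and 37.41 FPKM in WT and at 27.74, 30.20, 32.91, 29.02 and 28.18 FPKM in KO. The KO libraries were below all WT libraries except WT 4. It fell by 0.35 on the log2 scale (SE 0.08, adjusted p = 0.0232), a call lost if KO 1, KO 4 or KO 5 was left out (adjusted p reaching 0.0581). Its near-identical copy Psme2b also fell, at a lower mean level of 1.83 FPKM (log2 difference -0.55, adjusted p = 0.0269), so the split of reads between them is uncertain. Psme1, which forms the cap with Psme2, did not pass (-0.07, adjusted p = 0.652). Both were named after their values were seen.

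Usp14, a deubiquitinase of the proteasome, was at 20.43, 18.95, 17.61, 21.41 and 20.58 FPKM in WT and at 22.35, 23.35, 22.63, 21.72 and 22.84 FPKM in KO. All KO libraries were above all WT libraries, without passing the test (log2 difference 0.19, adjusted p = 0.0717). Akirin2, which carries proteasomes into the nucleus, was at 11.61, 11.45, 10.94, 11.64 and 11.61 FPKM in WT and at 14.21, 13.23, 11.91, 13.97 and 13.23 FPKM in KO. These groups did not overlap either (log2 difference 0.21, adjusted p = 0.0524), and Akirin2 passed under 8 of the 22 alternative settings.

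Among 5 tested assembly factors of the core, 1 rose, 0 fell and 4 did not pass. Psmg2, a chaperone that builds the alpha ring together with Psmg1, was at 9.88, 9.47, 10.01, 10.95 and 8.93 FPKM in WT and at 13.27, 12.64, 12.14, 13.01 and 10.94 FPKM in KO. All KO libraries but KO 5 were above all WT libraries, and KO 5 fell just short of WT 4. Psmg2 rose by 0.32 on the log2 scale (SE 0.07, adjusted p = 0.0216), a call lost if WT 5, KO 2 or KO 4 was left out (adjusted p reaching 0.0531) and without WT 3 and KO 3 together (0.0504). Its partner Psmg1 was at 14.2 ± 1.20 FPKM in WT and 13.9 ± 1.51 FPKM in KO (log2 difference -0.03, adjusted p = 0.843), and Psmg4, another assembly factor of the core, had a log2 difference of -0.15 (adjusted p = 0.506).

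Of 16 ubiquitin genes and genes that deliver substrates, 2 rose, 0 fell and 14 did not pass (median log2 difference 0.0079). Zfand5, which is known to bind and stimulate the proteasome, was at 25.15, 24.67, 26.45, 24.48 and 25.42 FPKM in WT and at 32.12, 34.48, 29.21, 31.11 and 29.90 FPKM in KO. No library overlapped, and it rose by 0.31 on the log2 scale (SE 0.05, adjusted p = 0.0072). Faf1, a cofactor of Vcp, had all KO libraries above all WT libraries without passing (log2 difference 0.17, adjusted p = 0.0954).

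Of 10 genes of NFE2L1, its activation and its partners, 2 fell, 0 rose and 8 did not pass (median log2 difference -0.13). Syvn1, the ubiquitin ligase of the endoplasmic reticulum that keeps NFE2L1 short-lived, was at 40.67, 33.63, 32.26, 42.68 and 35.03 FPKM in WT and at 23.40, 24.89, 30.10, 25.59 and 28.00 FPKM in KO. Every KO library was below every WT library. It fell by 0.47 on the log2 scale (SE 0.09, adjusted p = 0.0112) and stayed called under every setting run. Sel1l, its partner in the ligase, went from 33.6 ± 4.99 to 27.4 ± 1.76 FPKM (log2 difference -0.28, adjusted p = 0.0866). Mafg, a small Maf protein that pairs with NFE2L1, was at 16.91, 23.58, 24.12, 23.41 and 21.91 FPKM in WT and at 17.28, 17.22, 15.98, 15.47 and 17.06 FPKM in KO. WT 1 lay among the KO libraries and the other 4 above them (log2 difference -0.39, adjusted p = 0.0257, a call lost without any of 6 single libraries, WT 2, WT 4, WT 5, KO 3, KO 4 or KO 5, at up to 0.0613, without WT 3 and KO 3 together at 0.0824, and with the block at 0.0678). Nfe2l1 itself, named after its value was seen, did not pass (log2 difference -0.22, adjusted p = 0.165).

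The antigen presentation genes that use peptides cut by the proteasome gave 0 calls among 11, while all 11 log2 differences lay below 0 (median -0.20, range -0.36 to -0.06). Of all 12247 genes tested, 6653 lay below 0. The 11 genes were read in the same libraries, so their signs are not independent. Irf1, an interferon-responsive activator of the inducible subunits, was at 10.94, 10.08, 8.31, 6.61 and 10.16 FPKM in WT and at 7.43, 6.50, 7.25, 7.17 and 6.49 FPKM in KO. WT 4 lay among the KO libraries and the other WT libraries above them (log2 difference -0.36, adjusted p = 0.0828), and Irf1 passed without WT 4 (0.0131). Tapbp, which loads peptides onto class I molecules, had a log2 difference of -0.29 (adjusted p = 0.117) and Nlrc5, the activator of class I genes, one of -0.26 (adjusted p = 0.209). The part of the Kupffer cells and leukocytes, whose marker sums are given above, in these values was not tested.

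**Figure D5:**
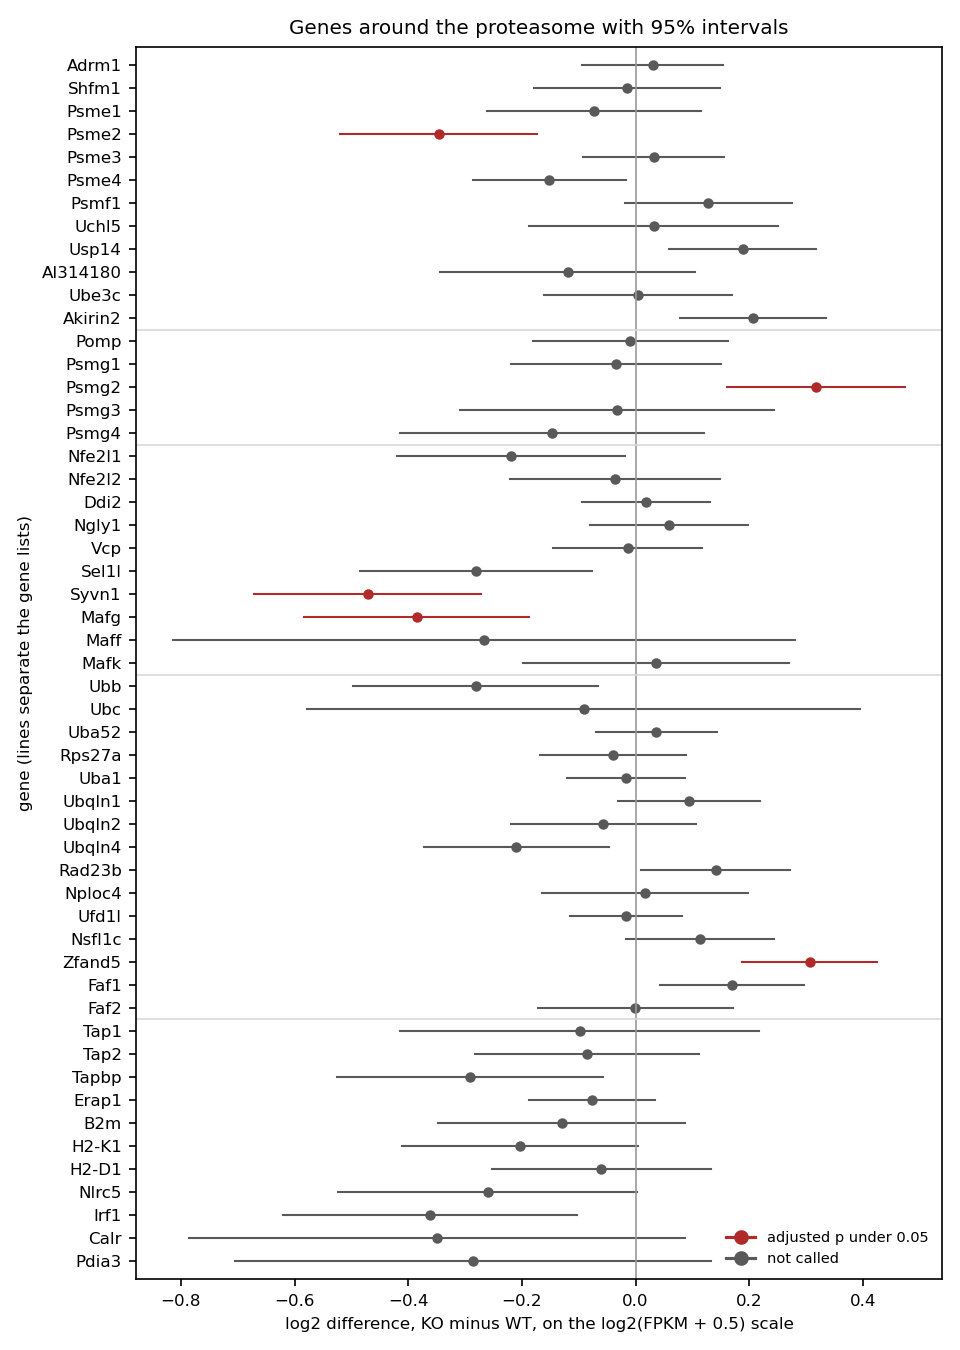
Difference between the genotypes for genes around the proteasome, as KO minus WT on the log2(FPKM + 0.5) scale with 95% intervals, in the order components and activators, assembly factors, NFE2L1 genes, ubiquitin and delivery genes, and class I antigen processing. Red marks an adjusted p under 0.05, which Psme2, Psmg2, Syvn1, Mafg and Zfand5 reach among the genes drawn.

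Among the markers of other liver cells, 1 of 10 hepatocyte genes rose (Cps1, log2 difference 0.58) and 0 fell, 0 of 10 sinusoidal endothelial genes were called, 1 of 9 stellate cell genes fell (Reln, -0.26) and 1 of 4 tested bile duct genes fell (Sox9, -0.56). Reln kept its call only without WT 3 when single libraries were left out (adjusted p at most 0.105), and Sox9 only without WT 5 or KO 1 (at most 0.0776). Both calls were also lost without the filter (Reln 0.0804, Sox9 0.0575), with the replicate number as a block (0.0634 and 0.0761) and without WT 3 and KO 3 together (0.0760 and 0.0934). Reln was lost under 3 of the 4 scalings too (0.0564 with median-of-ratios, 0.0521 with library sum and 0.0572 with quantile normalization). The summed endothelial level was 205.8 to 212.5 FPKM in WT and 194.5 to 216.1 FPKM in KO. Stellate cell markers summed to 129.4 to 171.2 FPKM in WT and 119.4 to 141.1 FPKM in KO, and bile duct markers to 14.9 to 20.4 FPKM in WT and 13.5 to 18.7 FPKM in KO. None of these genes was at 0 in any library. The abundant constitutive subunits are made by all of these cells.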

How the data were processed

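The data were deposited FPKM values per gene for 5 KO and 5 WT liver libraries, made by the authors and used as deposited. The submitters' processing notes name STAR, RSEM, R 4.0.2, DESeq, DESeq2 and mm10, but not what each was used for. Annotation release and strand setting are not given in the sources used here. Because FPKM is divided by library size, values within a library depend on each other, and total reads were not analysed here.

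All genes that averaged 0.5 FPKM or more were fitted with limma 3.58.1 in R 4.3.3 on log2(FPKM + 0.5), which understates fold changes of low genes. The model held genotype alone, with eBayes (trend, robust), two-sided tests and Benjamini-Hochberg adjustment over all 12247 genes at a threshold of 0.05. The fit was also run on simulated data with independent noise for each gene. Such data lack the covariation described above, so no conclusion is drawn from that run. Ratios were compared by exact permutation over 252 arrangements. No pair of libraries held identical values.

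The members and the gene lists were chosen with earlier results of these data known. Of 116 list entries 115 matched a gene. Library values are given for called members, for Psmb5 to Psmb10, and in each subgroup for the 2 smallest p and the highest and lowest level. In companion lists the named genes are the 3 with the smallest p and any called gene where 6 or fewer were called, and those not described are Hnf4a and other cell markers. A gene of the ubiquitin list that the rule gives is not reported here. Promoters came from RefSeq (GRCm38.p6). Those of Psma6, with 2 listed starts, and Psmb8, inside annotated exons, are not shown. Exon overlaps came from a GRCm38 annotation.

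Alternatives were pseudocounts of 0.1 and 1, no filter and a filter at 5 FPKM, 4 scalings, a fit without the robust option, library weights, a block for replicate number and each library left out. Whether numbers pair libraries was checked by correlating residuals. Figures used matplotlib 3.10.9 in Python 3.11.15.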

Additional observations from a re-analysis of the deposited data

Results flagged for a closer look

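For 2 genes, 1 of 5 libraries of a genotype stood far from the other 4, with a gap above Dixon's critical value. Akirin2, which carries proteasomes into the nucleus, was at 10.94 FPKM in WT 3, against 11.45 to 11.64 FPKM in the other WT libraries. WT 3 was also the lowest WT library for most proteasome subunits. Apoc3, an abundant hepatocyte apolipoprotein, was at 4015.85 FPKM in WT 2, against 3442.62 to 3577.43 FPKM in the others. In all 120 groups of 5 libraries were searched, of which chance alone would mark about 6.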

How the results depend on the processing

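The count of proteasome genes lower in KO was 0 under all 22 alternatives. The count of those higher was 0 without the filter, with library sum scaling, with the replicate block and without WT 3 and KO 3 (chosen after seeing the data), was 2 after quantile normalization, and ranged from 0 to 1 as single libraries were left out. Over all genes, 488 were higher and 558 lower, against 294 and 370 without the filter, 230 and 321 with the replicate block, 259 to 456 and 317 to 544 as single libraries were left out, and 337 and 683 after library sum scaling. The count of higher genes was below 488 whichever library was left out, and by over 1.5 times without WT 1, WT 4, WT 5, KO 2, KO 4 or KO 5. Same-numbered libraries did not pair (residual r -0.207 to 0.208, the best match for 1 of 5 numbers), and the block changed the call of no other named subunit. Of 440 values for 20 named subunits, 13 changed sign, all near 0. Psmb7 was -0.029 with library sum scaling, -0.017 with library weights, -0.065 without WT 3 and KO 3 and -0.034 to 0.021 with single libraries left out. Psmb6 was 0.0030 after quantile normalization. Without WT 3 and KO 3, Psma5 was -0.021, Psmd14 -0.039 and Psmd4 -0.024. With single libraries left out, Psma5 ranged from -0.00019 to 0.080, Psmd14 from -0.014 to 0.088, Psmd4 from 0.019 to 0.13, Psmg1 from -0.085 to 0.016, and the Psmb9/Psmb6 log2 ratio from -0.24 to 0.017. The causes were not tested. Read totals were not analysed here, so how far depth limits these values is not known.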
